A study of Tachysurus fulvidraco x Tachysurus vachelli with 6 samples.

Results

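Transcripts of tp63, grhl1 and evpl, which regulate or build layered epithelium, and of anxa1, for a phospholipid-binding protein, were followed in the gills of juvenile hybrid yellow catfish. They were taken by symbol, 1 row each, from a table of 25792 genes. They were selected on the difference in their deposited counts and FPKM between the groups in an earlier look at the same libraries, so their own transport values are a description without a test. The fish came from a cross of female Tachysurus fulvidraco with male P. vachellii, and RNA was taken from the second left gill. One group of 3 libraries came from fish transported for 16 h, and the other group of 3 came from untreated controls. The labels name no genotype or further agent, and do not say whether a library was 1 fish or a pool. The p-values below therefore cover only differences between libraries, some of which could be technical.

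The protein p63 is the transcription factor that establishes and maintains the basal, dividing layer of stratified epithelium. Grainyhead-like 1 is a transcription factor of epithelial differentiation that in mice maintains desmosomes, the adhesion plaques that join neighbouring cells. Envoplakin is a plakin that links keratin filaments to desmosomes and to the envelope under the membrane of differentiated surface cells, and in mammals it pairs with periplakin. Annexin A1 binds membrane phospholipids when calcium is present and restrains inflammation through formyl peptide receptors. The gill surface is such an epithelium, with a basal layer below the pavement cells that face the water.

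After transport the gills held less RNA of tp63 and anxa1, and more of grhl1 and evpl, than control gills. Values are the deposited FPKM, fragment numbers corrected for transcript length and library size. In each of the 4 genes the transport and control libraries did not overlap. The same was true of 32.7% of the 20771 genes with enough counts to be tested, and nothing is read from the count of 4 because this comparison chose the genes. Log2 fold changes are transport minus control from edgeR's fit, with standard errors (SE). A median tested gene stood at 0.0018 on that scale.

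**Figure D1:**
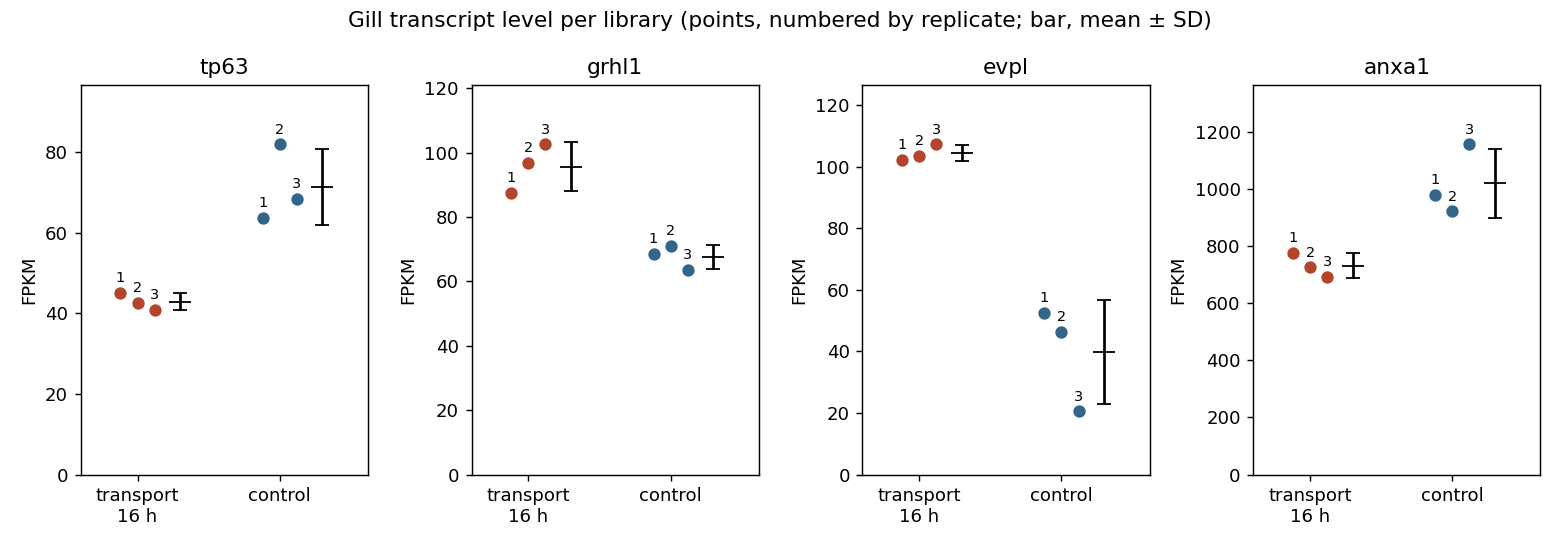
FPKM of tp63, grhl1, evpl and anxa1 in each gill library. Points are libraries numbered by replicate, and the bar beside them is the mean ± SD (n = 3). Transport libraries lie below the controls for tp63 and anxa1 and above them for grhl1 and evpl, and control replicate 3 is the lowest evpl value at 20.5.

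The basal-layer regulator tp63 (NW_020848416.1, 14315802 to 14357796, plus strand, 4 transcript models) had 45.2, 42.7 and 40.9 FPKM in transport replicates 1, 2 and 3, against 63.7, 81.9 and 68.3 FPKM in control replicates 1, 2 and 3. The transport libraries lay close together and all below the lowest control. The means were 42.9 ± 2.15 FPKM after transport and 71.3 ± 9.45 FPKM in controls (SD, n = 3 each). The log2 fold change was -0.75 (SE 0.12), and it stayed between -0.84 and -0.64 when each library was left out in turn. A change at least as large in size was found in 21.3% of tested genes. One row covers all its transcript models, so the isoforms of p63 with and without the activation domain cannot be told apart.

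Annexin A1, anxa1 (NW_020847779.1, 2250149 to 2255909, plus strand, 1 transcript model annotated as low quality), was the most abundant of the 4 genes and lay above at least 99.3% of tested genes in every library. It had 777, 725 and 693 FPKM after transport, against 980, 921 and 1156 FPKM in controls. The groups were separate, with the highest control in replicate 3. Means were 732 ± 42.3 FPKM after transport and 1019 ± 122 FPKM in controls. The log2 fold change was -0.50 (SE 0.11), between -0.56 and -0.39 with each library left out. Among tested genes, 35.5% changed at least as much in size.

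The differentiation factor grhl1 (NW_020848035.1, 1278559 to 1315755, plus strand, 4 transcript models) had 87.5, 96.9 and 102.5 FPKM after transport and 68.6, 70.9 and 63.6 FPKM in controls. Each transport library exceeded each control. Means were 95.6 ± 7.58 FPKM after transport and 67.7 ± 3.75 FPKM in controls, a log2 fold change of 0.48 (SE 0.10, and 0.42 to 0.55 with each library left out). Among tested genes, 36.6% changed at least as much in size. Within the span of grhl1, on the minus strand, lies LOC113659580, also annotated as grainyhead-like 1. That locus was listed at 0 FPKM in all libraries but control replicate 1, where it had 0.1 FPKM. The labels do not say whether counting used strand, so reads in the overlap cannot be assigned with certainty.

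Envoplakin, evpl (NW_020848156.1, 1954072 to 1970813, plus strand, 1 transcript model), showed the largest change of the 4. It had 102.3, 103.4 and 107.3 FPKM after transport, against 52.4, 46.4 and 20.5 FPKM in controls. The transport libraries were nearly equal, with a coefficient of variation of 2.50%, while that of the controls was 42.6%, with replicate 3 far below the others. Means were 104 ± 2.61 FPKM after transport and 39.8 ± 16.9 FPKM in controls. The log2 fold change was 1.38 (SE 0.31), 1.07 without control replicate 3 and 1.60 without control replicate 1. A change of this size or more was found in 7.57% of tested genes.

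The order of the 4 levels differed between the groups below the top place. After transport it was anxa1, evpl, grhl1 and tp63 in each library, although evpl and grhl1 overlapped across libraries (102.3 FPKM for evpl in replicate 1 and 102.5 FPKM for grhl1 in replicate 3). In the controls anxa1 was followed by grhl1 and tp63, which overlapped and changed places between libraries, and evpl was lowest in each. The ratio of grhl1 to tp63 FPKM was 1.94, 2.27 and 2.51 after transport, against 1.08, 0.866 and 0.931 in controls. Both genes were chosen for their change, so this ratio is only described. In bulk tissue, fewer cells of a type and less RNA per cell cannot be told apart, which applies to every value here.

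The tests that follow concern genes outside the 4. They use edgeR's quasi-likelihood test with Benjamini-Hochberg adjustment over all 20771 tested genes, and a gene is called at an adjusted p under 0.05. This called 6.69% of tested genes, 3.23% higher and 3.46% lower after transport. An unadjusted p under 0.05 was far more common, with 5200 of the 20771 tested genes. Counts of unadjusted p given below are to be read against that share. Over the same genes DESeq2 called 3336 and limma on log2(FPKM + 1) called 1455. Counts from these tools are to be read against those numbers. All lists below were chosen with earlier results of these data known, so their called shares are only described. The edgeR calls changed when a library was left out. Over all tested genes the number called was 1389 with all libraries, and 3 to 1498 with 1 left out. A fit with fewer libraries has less power, and the part of this in the lost calls was not tested. Outside the cell type markers, whose calls were not followed singly, 17 called genes and loci are named below. Of these 17, 15, 9 and 4 stayed called without control replicates 1, 2 and 3. The numbers were 6, 0 and 1 without transport replicates 1, 2 and 3. All 17 kept their sign in each of these fits, and their adjusted p ran from 0.0952 to 0.184 without transport replicate 2.

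Among the tested relatives of the 4 genes, edgeR called 3 annexin loci and no other. The gene tp73, for p73, a transcription factor related to p63, had 6.29 ± 1.50 FPKM after transport and 7.36 ± 1.68 FPKM in controls (log2 fold change -0.24, SE 0.23). It was not called by edgeR, DESeq2 or limma, and its edgeR adjusted p was 0.581.

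Among the Grainyhead genes, grhl3, a relative that acts in epidermal barrier formation and repair in mice, had 91.6 ± 5.50 FPKM after transport and 99.0 ± 9.27 FPKM in controls (log2 fold change -0.13, SE 0.10, edgeR adjusted p = 0.474). The main grainyhead-like 2 locus, LOC113644801, for a regulator of epithelial junction genes in mammals, had 50.3 ± 0.936 FPKM after transport and 51.6 ± 9.07 FPKM in controls. The partial locus LOC113653451 had 7.88 ± 1.00 FPKM after transport and 9.27 ± 0.833 FPKM in controls. None of these 3 was called by edgeR, DESeq2 or limma, or had an unadjusted p under 0.05. Summed over the 4 expressed loci, Grainyhead transcripts had 245 ± 1.22 FPKM after transport and 228 ± 13.4 FPKM in controls. The share held by grhl1 was 35.9%, 39.3% and 41.7% after transport, against 28.8%, 30.5% and 29.9% in controls. In each control grhl3 exceeded grhl1, and in transport replicates 2 and 3 grhl1 exceeded grhl3.

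**Figure D2:**
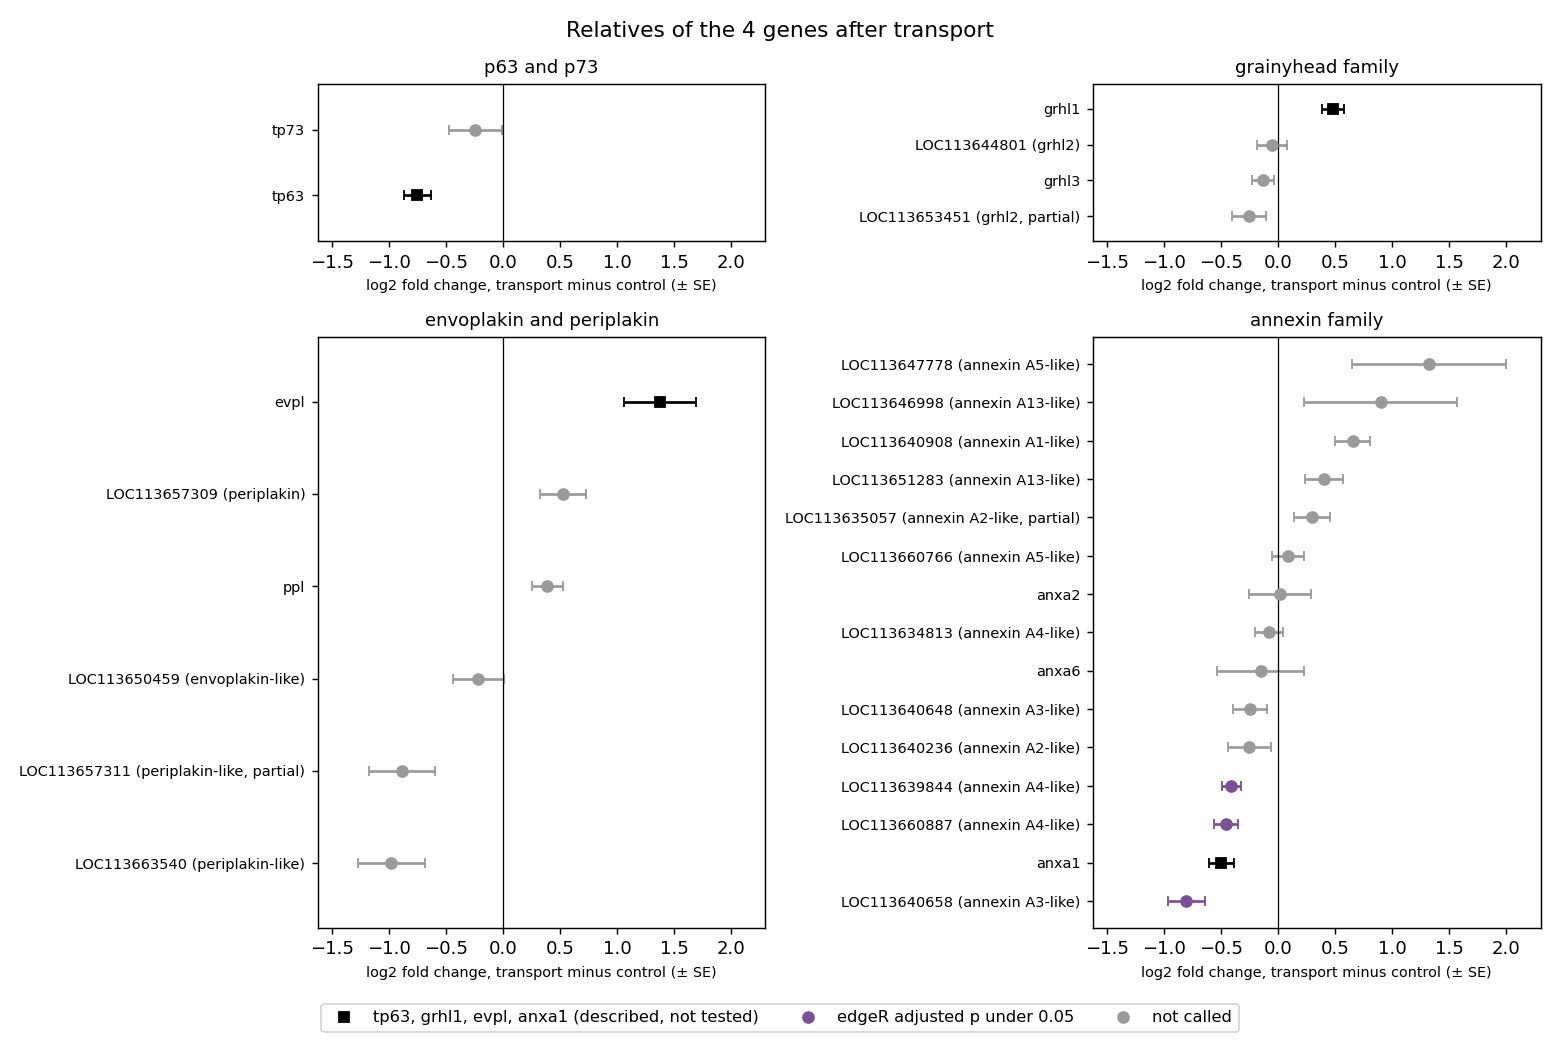
Log2 fold change (transport minus control, ± SE of the edgeR fit) of the p63 and p73, Grainyhead, envoplakin and periplakin, and annexin genes with enough counts. Squares are tp63, grhl1, evpl and anxa1, purple circles are other genes called at an adjusted p under 0.05, and grey circles are genes not called. The annexin A3-like locus LOC113640658 (-0.80) and annexin A4-like loci LOC113639844 (-0.41) and LOC113660887 (-0.45) are the called relatives.

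The other envoplakin locus was scarcer and was not called. LOC113650459, annotated as envoplakin-like (NW_020847890.1, from 644878), had 21.1, 19.6 and 18.2 FPKM after transport and 31.7, 17.9 and 18.0 FPKM in controls, with overlapping groups (log2 fold change -0.21, SE 0.22, edgeR adjusted p = 0.611). The ratio of evpl to this locus was 4.85, 5.27 and 5.91 after transport and 1.65, 2.59 and 1.14 in controls. If reads of such copies were shared in counting, each value would be a mixture, and the files do not show how they were assigned.

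Periplakin, the partner of envoplakin, was spread over 4 loci, 3 of them side by side on NW_020848007.1. The gene ppl had 107.6, 97.9 and 95.2 FPKM after transport, against 88.2, 78.1 and 60.5 FPKM in controls. The groups were separate, but the log2 fold change of 0.39 (SE 0.14) did not pass (edgeR adjusted p = 0.142). Its neighbour LOC113657309 had 6.91 ± 0.783 FPKM after transport and 4.74 ± 1.16 FPKM in controls (0.53). The loci annotated as periplakin-like had negative values instead, at -0.88 for LOC113657311, on the same scaffold, and -0.98 for LOC113663540, on NW_020848110.1. Of the 5 envoplakin and periplakin loci beside evpl, edgeR and limma called 0 and DESeq2 called 2, and 4 had an unadjusted edgeR p under 0.05, 2 in each direction. Over all 20771 tested genes DESeq2 called 3336, and 5200 had such an unadjusted p.

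Per length, evpl and ppl were close to equal after transport, and evpl was below ppl in the controls. The ratio of evpl to ppl FPKM was 0.951, 1.06 and 1.13 in transport replicates 1, 2 and 3, against 0.594, 0.594 and 0.340 in control replicates 1, 2 and 3. No control reached the lowest transport ratio, and replicate 3 again stood below the other controls. Because evpl was chosen for its change, the ratio has no test. The same holds for every ratio or share of tp63, grhl1, evpl or anxa1.

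**Figure D3:**
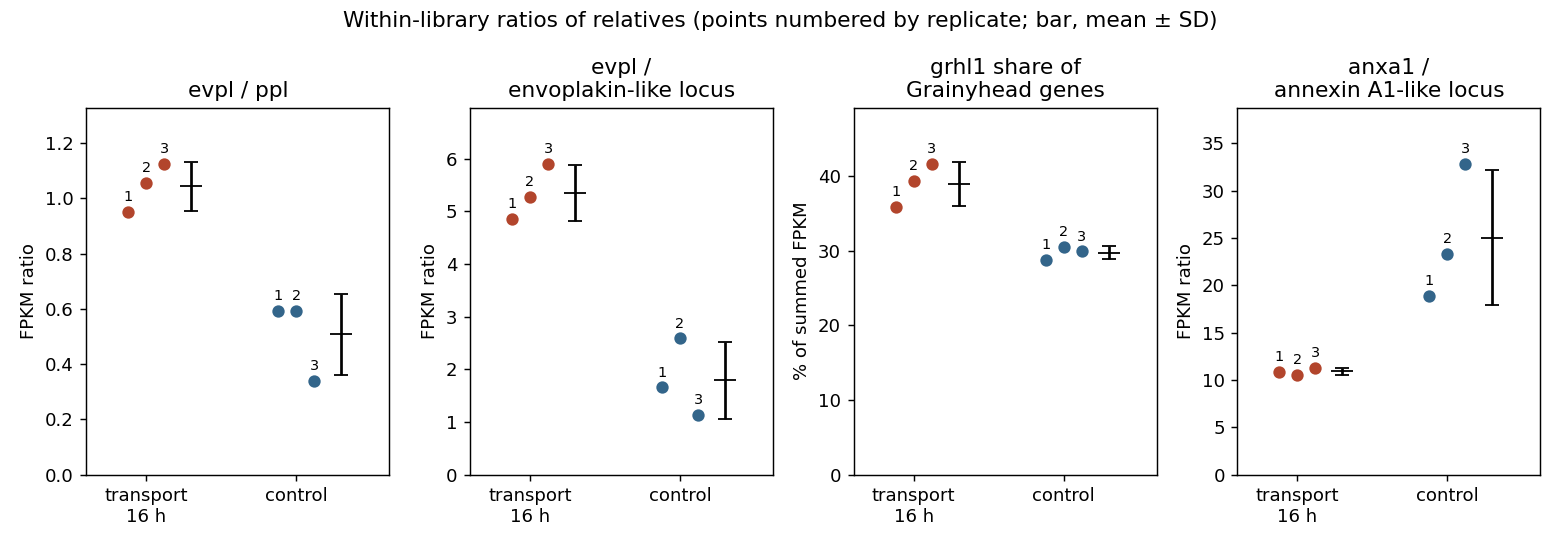
Within-library ratios of FPKM: evpl to ppl, evpl to the envoplakin-like locus, the share of grhl1 in summed Grainyhead FPKM (%), and anxa1 to the annexin A1-like locus. Points are libraries numbered by replicate, with the mean ± SD beside them (n = 3). The evpl to ppl ratio averaged 1.04 ± 0.0882 after transport and 0.509 ± 0.147 in controls. The groups are separate in all 4 panels, which is no test, because each ratio holds a gene chosen for its change.

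A further annexin A1 locus had a positive log2 fold change, where that of anxa1 was negative. LOC113640908, annotated as annexin A1-like (NW_020847784.1, from 933038), had 71.5, 69.0 and 61.3 FPKM after transport and 52.0, 39.5 and 35.2 FPKM in controls. The groups were separate, and the log2 fold change of 0.66 (SE 0.15) fell short of the threshold (edgeR adjusted p = 0.0527). It was called by DESeq2, by limma, with the stricter low-count filter and with counts divided by 4, and by edgeR without control replicate 1 (edgeR adjusted p = 0.0198). With each library left out its log2 fold change stayed between 0.54 and 0.81. The ratio of anxa1 to this locus was 10.9, 10.5 and 11.3 after transport and 18.9, 23.3 and 32.8 in controls.

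Annexins bind membranes in the presence of calcium, and 14 annexin loci beside anxa1 were tested. Of these 14 loci, 3 fell and none rose by edgeR, where 3.46% of all tested genes fell and 3.23% rose. They had 7 positive and 7 negative log2 fold changes and a median of -0.03. The annexin A3-like locus LOC113640658 fell to 54.3 ± 11.6 FPKM after transport, against 93.4 ± 8.30 FPKM in controls (log2 fold change -0.80, SE 0.16, edgeR adjusted p = 0.0385). Its neighbour on NW_020847783.1, LOC113640648, also A3-like, had 27.5 ± 0.993 FPKM after transport and 32.2 ± 5.77 FPKM in controls and was not called. The A4-like loci LOC113639844 and LOC113660887 fell to 61.1 ± 1.17 and 52.1 ± 4.13 FPKM after transport, against 80.1 ± 3.90 and 70.4 ± 5.29 FPKM in controls (edgeR adjusted p = 0.0376 and 0.0492). The third A4-like locus, LOC113634813, was not called (-0.08). Of the 3 calls, LOC113640658 was lost without control replicate 2 or 3 or transport replicate 2 or 3 (edgeR adjusted p up to 0.171). LOC113639844 was lost without any 1 library but control replicate 1 (up to 0.182), and LOC113660887 without any 1 library (up to 0.184).

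The abundant anxa2, for a membrane and actin-binding annexin, had 518, 591 and 655 FPKM after transport, against 614, 771 and 340 FPKM in controls. Its groups overlapped (log2 fold change 0.02, SE 0.27), and its sign turned without control replicate 3 (-0.25) and without transport replicate 3 (-0.07). The A5-like loci LOC113660766 and LOC113647778 stood at 0.09 and 1.32, with LOC113647778 below 1 FPKM in every library. The A13-like loci LOC113651283 and LOC113646998 stood at 0.40 and 0.90, the A2-like loci LOC113635057 and LOC113640236 at 0.29 and -0.25, and anxa6 at -0.15. The formyl peptide receptor 2-like loci, relatives of the receptor of annexin A1, were scarce. LOC113641224 had 1.26 ± 0.249 FPKM after transport and 1.76 ± 0.508 FPKM in controls, and LOC113641254 had 0.417 ± 0.200 FPKM after transport and 0.960 ± 0.541 FPKM in controls, neither of them called.

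Genes that work with p63 or mark the basal layer were taken as a list of 45 symbols, of which 35 were tested. Of these, 4 fell and none rose, which is 11.4% against 6.69% of all tested genes. Negative log2 fold changes numbered 21, and the median was -0.15. The Notch target gene hes1, a transcriptional repressor, had 17.9, 14.2 and 11.2 FPKM after transport and 34.7, 43.5 and 49.4 FPKM in controls (log2 fold change -1.58, edgeR adjusted p = 0.0142). The Notch ligand gene jag1 fell to 6.71 ± 0.890 FPKM after transport, against 11.7 ± 2.06 FPKM in controls. The hemidesmosome collagen gene col17a1, which anchors basal cells to the basement membrane, had 0.630, 0.490 and 0.610 FPKM after transport and 2.20, 1.50 and 3.90 FPKM in controls. The integrin subunit gene itgb1 fell to 4.98 ± 0.878 FPKM after transport, against 8.52 ± 0.550 FPKM in controls. The edgeR adjusted p of jag1, col17a1 and itgb1 was 0.0319, 0.0255 and 0.0321. The list's count was 2 without control replicate 3 or transport replicate 1, and 0 without transport replicate 2 or 3. Proliferation markers, which dividing basal cells express, were also lower, with 11 of 18 called (61.1%). Their summed level was 331 to 350 FPKM after transport and 476 to 648 FPKM in controls. Their part in the tp63 values was not tested.

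Other members of that list were not called. Of the 35 tested, 7 had an unadjusted edgeR p under 0.05, against 5200 of all 20771 tested genes, and all 7 were lower. These were the called genes and cd151, lamb3 and lama3 (log2 fold changes -1.16, -0.81 and -0.46). The hemidesmosome integrin gene itgb4 had 14.0 ± 2.25 FPKM after transport and 11.9 ± 1.88 FPKM in controls, with overlapping groups. The p63 target perp, a desmosome-associated membrane protein, had 297 ± 24.8 FPKM after transport and 266 ± 25.6 FPKM in controls. Loci with a number only were matched by product name after the table was opened. Among 12 tested for Notch receptors, the ubiquitin ligase Itchy, IGFBP3 and integrin alpha-3, 1 rose and 2 fell. The called share was 25%, against 6.69% of all tested genes. The Notch 1-like locus LOC113634548 fell to 2.77 ± 0.397 FPKM after transport, against 6.02 ± 0.501 FPKM in controls (log2 fold change -1.13, edgeR adjusted p = 0.0122). The IGFBP3 locus LOC113662305 fell (-1.45) and the integrin alpha-3-like locus LOC113653516 rose (0.74). Without transport replicate 2 all 3 calls were lost (edgeR adjusted p from 0.0952 to 0.123). Those of LOC113662305 and LOC113653516 were also lost without control replicate 3, transport replicate 1 or transport replicate 3, and that of LOC113662305 without control replicate 2. The Itchy-like loci LOC113643040 and LOC113655279, for a ligase that degrades p63 in mammals, were not called (-0.03 and 0.15).

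Of 43 symbols for Grainyhead relatives and genes linked to them in other vertebrates, most but not all epithelial, 18 were tested. Of these, 1 fell and none rose (5.56%, against 6.69% of all tested genes, median 0.04). Log2 fold changes were positive in 10 and negative in 8. An unadjusted edgeR p under 0.05 was found for 3 higher and 2 lower genes, against 5200 of all 20771 tested genes. The higher ones, ap1m2 (0.45), elf3 (0.31) and zeb1 (0.80), were not called, and zeb1 is not an epithelial marker. The gene rab25, for a small GTPase of epithelial membrane recycling, fell to 90.9 ± 4.82 FPKM after transport, against 127 ± 10.1 FPKM in controls (log2 fold change -0.50, SE 0.10, edgeR adjusted p = 0.0322). It was not called without control replicate 2 or 3, or without any one of the transport libraries (edgeR adjusted p up to 0.172). The epithelial ETS factor gene ehf lay just outside the threshold, at 118 ± 10.1 FPKM after transport and 178 ± 30.9 FPKM in controls (edgeR adjusted p = 0.0501), and was called by DESeq2, under upper-quartile scaling, with the stricter low-count filter and with counts divided by 4. The occludin gene ocln, for a tight junction protein, had 49.0 ± 1.96 FPKM after transport and 42.3 ± 4.22 FPKM in controls and was not called. Among 9 loci matched by product name, edgeR called 1 (11.1%, against 6.69% of all tested genes). This was Ovo-like 1, LOC113635229, for a repressor that drives epithelial differentiation. It rose to 40.6 ± 2.10 FPKM after transport, against 27.0 ± 1.33 FPKM in controls (log2 fold change 0.57, SE 0.09, edgeR adjusted p = 0.0224). It was not called without control replicate 3 or without any one of the transport libraries (up to 0.137). The epithelial cell adhesion molecule locus LOC113645006, a general epithelial marker, was not called (-0.05).

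**Figure D4:**
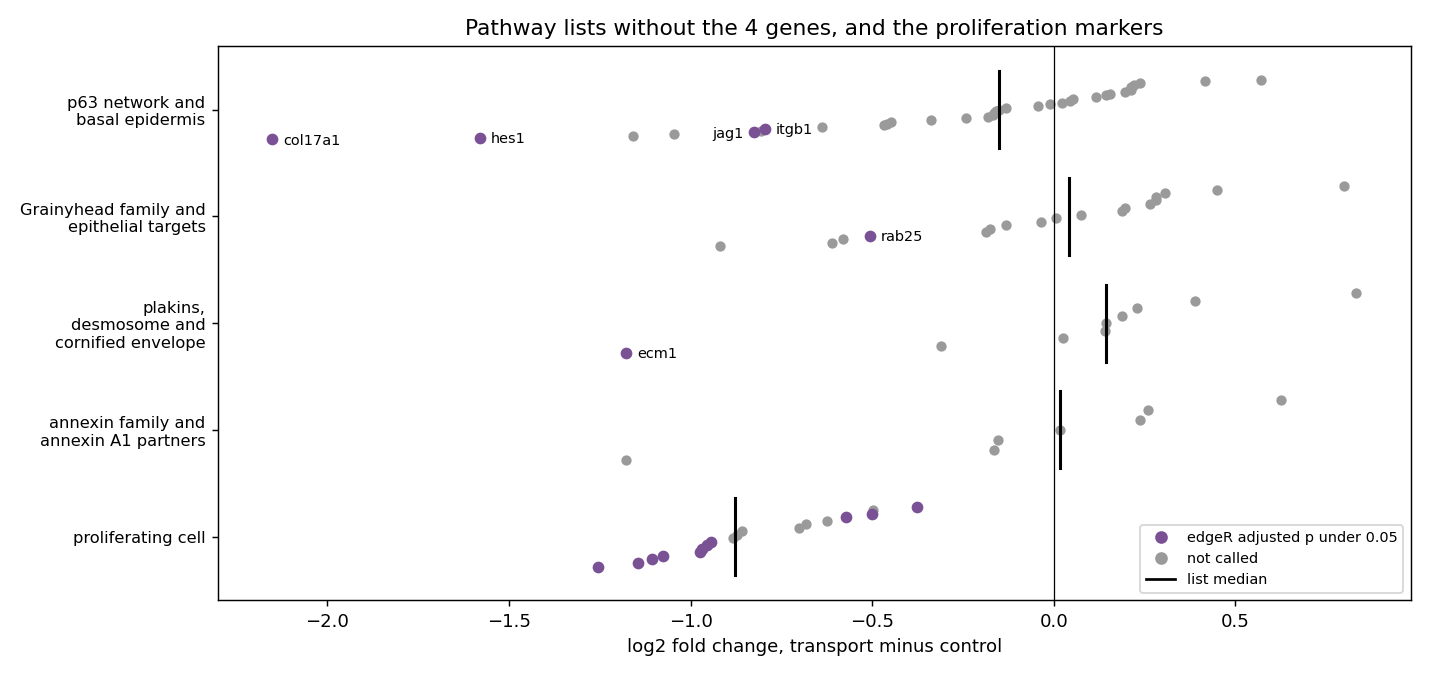
Log2 fold changes (transport minus control) of the tested genes in the 4 pathway lists, which leave out tp63, grhl1, evpl and anxa1, and in the proliferation markers. Purple points are genes called at an edgeR adjusted p under 0.05, and the black line is the list median. The called genes of the pathway lists all lie left of 0, and the proliferation markers all do, with a median of -0.88.

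The plakin, desmosome and cornified envelope list had 36 symbols, of which only 9 were tested under a symbol. Of the 9, 1 was lower and none higher (11.1%, against 6.69% of all tested genes, median 0.14). The called gene was ecm1, for a secreted glycoprotein of skin, which had 5.91, 4.34 and 4.82 FPKM after transport and 9.68, 12.7 and 11.3 FPKM in controls (log2 fold change -1.18, SE 0.17, edgeR adjusted p = 0.0184). It lost its call without control replicate 3, transport replicate 2 or transport replicate 3 (edgeR adjusted p from 0.0573 to 0.114). The sciellin gene scel, for a precursor of the cornified envelope, had 73.7 ± 2.60 FPKM after transport and 64.0 ± 18.0 FPKM in controls. The gene pkp1, for the plaque protein plakophilin 1, had 22.4 ± 5.05 FPKM after transport and 20.1 ± 2.43 FPKM in controls.

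Loci of the same structures without a symbol were matched by product name. Among 8 cornifelin loci, for cysteine-rich proteins of the cornified envelope in mammals, LOC113644722 rose to 102, 127 and 145 FPKM after transport, against 62.3, 43.9 and 51.4 FPKM in controls (log2 fold change 1.23, SE 0.18, edgeR adjusted p = 0.0175). Its call was lost without control replicate 3, transport replicate 2 or transport replicate 3 (edgeR adjusted p from 0.0602 to 0.105), and edgeR called no other cornifelin locus. The called share was 12.5%, against 6.69% of all tested genes. DESeq2 called 2 of the 8 and limma 1, against 3336 and 1455 of all 20771 tested genes. The plaque proteins desmoplakin, plakophilin and plakoglobin had 8 loci, of which edgeR, DESeq2 and limma called 0 and none had an unadjusted p under 0.05. The desmoplakin-like locus LOC113640174 had a log2 fold change of 0.11. The 7 plectin and epiplakin loci, relatives of envoplakin, held 0 calls by edgeR and limma, 1 by DESeq2 and 2 unadjusted p under 0.05, 1 in each direction. Over all 20771 tested genes DESeq2 called 3336, and 5200 had an unadjusted edgeR p under 0.05. Of 7 desmosomal cadherin loci, which form the adhesive part of the desmosome, 3 desmoglein-2-like loci fell by edgeR. That is 42.9%, against 6.69% of all tested genes. LOC113658408 fell by 0.59, LOC113650575 by 1.68 and LOC113658428 by 2.10 on the log2 scale. LOC113658408 and LOC113658428 lie in a row of desmoglein-2-like loci on NW_020848016.1. If reads of such copies were shared in counting, their calls would not be independent. DESeq2 called 4 of the 7, and limma on log2(FPKM + 1) called 0. For these 3 loci the limma adjusted p was 0.0507 to 0.0565 on that scale. On log2(FPKM + 0.1) it was 0.0497 to 0.0523, and of the 3 only LOC113658428 was not called. Each of the 3 edgeR calls was lost without any one of the transport libraries (edgeR adjusted p up to 0.184).

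Control replicate 3 stood apart in several of these epithelial genes, which were picked out after their values were seen. Beside its low evpl, ppl and anxa2, it held the lowest plectin-like LOC113635170, with 24.7, 26.7 and 27.4 FPKM in the transport libraries against 13.7, 17.1 and 0.670 FPKM in the controls. It also held the highest value of each of the 5 tested desmoglein-2-like loci, though not of the desmoglein-1-like locus LOC113664017, which was highest in control replicate 1 at 37.2 FPKM. LOC113658428 had 8.61, 8.83 and 7.26 FPKM after transport and 17.9, 24.0 and 62.4 FPKM in controls. Without this library LOC113658428 stayed called (log2 fold change -1.36, edgeR adjusted p = 0.0304), and evpl kept 1.07. LOC113650575 and LOC113658408 lost their calls without control replicate 3, with log2 fold changes of -1.19 and -0.55. In LOC113658408 that library barely exceeded control replicate 1 (16.3 and 16.2 FPKM). Over all tested genes the number called fell from 1389 to 379 without it. Why this library differs was not tested.

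The remaining list, annexins and the partners of annexin A1, had 26 symbols, of which 7 were tested. None was called by edgeR or limma, DESeq2 called 2, and 2 had an unadjusted edgeR p under 0.05. Over all 20771 tested genes these numbers were 3336 by DESeq2 and 5200 by unadjusted p. The smallest p belonged to dusp1, a phosphatase gene induced by glucocorticoids, which had 118, 81.5 and 49.8 FPKM after transport and 109, 240 and 206 FPKM in controls, with overlapping groups (edgeR adjusted p = 0.111). The scaffold gene ahnak, whose protein binds annexin A2, had 71.4 ± 13.4 FPKM after transport and 45.8 ± 11.2 FPKM in controls.

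Across the 6 libraries, genes with a pattern like one of the 4 were ranked by the Pearson correlation of log2 CPM among 5622 genes with a symbol and a mean of at least 5 FPKM. The points share the group difference that chose the 4 genes, so the values are descriptive. For tp63 the closest were ugcg (r = 0.997), for a glycosphingolipid enzyme, cenpi (0.996), rab25 (0.996), knstrn (0.995) and cdca3 (0.994), of which cenpi, knstrn and cdca3 act at the kinetochore or in cell division. For grhl1 they were c1qbp, cunh12orf43, eif6, yars and cunh11orf98 (0.997 to 0.998), of which eif6 acts in ribosome assembly and yars charges tyrosine tRNA. For evpl they were chd1, tspan13, arhgap12, senp1 and fam206a (0.993 to 0.997). For anxa1 they were tbck, ccng1, serinc1, cpsf6 and cavin2 (0.988 to 0.995). With so few libraries such values are common: 145, 284, 141 and 94 genes reached 0.95 for tp63, grhl1, evpl and anxa1.

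The libraries held 42962760 to 58495713 estimated counts each. Some markers of other cells in the gill also differed between the groups, in most lists through a few genes. The called share was 61.1% of proliferation, 37.5% of fibroblast, 40% of cartilage and bone and 14.3% of mucous cell markers. It was 9.09% of ionocyte, 7.69% of endothelial, 33.3% of red blood cell and 30% of leukocyte markers, against 6.69% of all tested genes. The marker lists were chosen with earlier results of these data known, so nothing is read from an excess over that share. All 18 proliferation markers had a negative log2 fold change, none was at 0, and the sum of those not called was also lower (73.8 to 80.8 FPKM after transport, 101 to 152 FPKM in controls). The count of 11 was 6 without control replicate 2, 1 without control replicate 3 or transport replicate 1, and 0 without transport replicate 2 or 3. Fibroblast markers had 3 of 8 lower, the matrix genes col1a2, dcn and col5a1, and a median log2 fold change of -0.52. Of the 8, 7 had a negative log2 fold change and 1 a positive one. Their summed level was 497 to 782 FPKM after transport and 753 to 1200 FPKM in controls, which overlapped. The most abundant marker in this sum, sparc, had 648, 506 and 375 FPKM after transport and 406, 505 and 676 FPKM in controls. The gene fbln1 was at 0 in some libraries. Cartilage and bone markers had 4 of 10 lower, with a median of -0.77 and sums of 46.2 to 60.9 FPKM after transport and 84.7 to 121 FPKM in controls. Without the 4 called genes these sums overlapped (13.0 to 16.6 FPKM after transport, 11.7 to 16.6 FPKM in controls), and comp and col9a1 were at 0 in some libraries.

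Mucous cell markers had 1 of 7 lower, agr2, which acts in mucin folding, and a median of -0.10. Their sums were 252 to 339 FPKM after transport and 428 to 688 FPKM in controls, but without agr2 they overlapped (186 to 239 FPKM after transport, 187 to 278 FPKM in controls). Ionocyte markers had 1 of 11 higher, the sodium pump subunit gene atp1b1, with 5 positive and 6 negative log2 fold changes and a median of -0.02. Their sums were 906 to 1175 FPKM after transport and 690 to 835 FPKM in controls, and overlapped without atp1b1 (353 to 437 FPKM after transport, 331 to 421 FPKM in controls). The ionocyte genes foxi3, kcnj1 and slc12a3 were at 0 in some libraries, while gcm2, a gill regulator, was present in each.

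Endothelial markers had 1 of 13 lower and a median of -0.24, with overlapping sums (103 to 133 FPKM after transport, 127 to 164 FPKM in controls). Red blood cell markers had 1 of 3 higher, the heme synthesis gene hmbs, with sums of 31.2 to 33.7 FPKM after transport and 17.4 to 24.9 FPKM in controls that overlapped without it (20.4 to 22.2 FPKM after transport, 13.0 to 20.7 FPKM in controls). Leukocyte markers had 1 higher and 2 lower of 10 and a median of -0.03, with overlapping sums (248 to 303 FPKM after transport, 236 to 280 FPKM in controls). Of 7 skeletal muscle markers, 0 were called by edgeR, DESeq2 or limma and 0 had an unadjusted p under 0.05 (19.4 to 183 FPKM after transport, 31.9 to 178 FPKM in controls). The part of these cell types in the values of tp63, grhl1, evpl and anxa1 was not tested.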

How the data were processed

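RNA sequencing of 6 gill libraries gave 1 table with 12 value columns. Per the file headers, the authors deposited a count and an FPKM for every gene and library. The authors' deposited counts are treated as estimated counts. HISAT and StringTie appear in the submitters' processing notes, and a genome build was not given in the sources used here. These counts are whole, but low values cluster at 4 and not at 3: between 417 and 485 genes a library had 4, against 79 to 113 with 3. Counting strand is not stated, so antisense partners can share reads. How reads of near-identical copies were assigned is not stated either, so such copies can also share reads.

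Both groups were fitted in edgeR 4.0.16 (R 4.3.3) with TMM scaling, filterByExpr (minimum count 10, minimum total 15), no covariates and a two-sided quasi-likelihood F test. P-values were adjusted by Benjamini-Hochberg over 20771 genes, with a threshold of 0.05. Each SE is the absolute log2 fold change over the root of F. Alternatives were DESeq2 1.42.0, limma 3.58.1 on log2(FPKM + 1) and log2(FPKM + 0.1), other scalings and filters, counts divided by 4, the replicate number as a block, and leaving out each library. Steps were tested on simulated counts.

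The 4 genes and all lists were chosen with earlier results of these data known, and product-name groups after the table was opened. Named genes are the 4 genes, up to 6 called genes a list and direction or else its smallest p, tested relatives by product name, and the 5 most similar genes. Of genes always to be named, grhl2, tfcp2l1, dsp, cdh1 and itch matched no symbol. Some genes of the lists are not reported here by name. Other genes named were picked after their values were seen.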

Additional observations from a re-analysis of the deposited data

How the results depend on the processing

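The log2 fold changes of tp63, grhl1, evpl and anxa1 kept their sign and moved by less than the spread between libraries under every alternative run. This could hardly come out otherwise, and no conclusion is drawn from it. The 4 genes were chosen on this contrast, and the spread includes the library left out. The number of called genes, 1389, became 3336 with DESeq2 and 3 to 1498 with 1 library left out: 3 and 162 without transport replicates 2 and 3, 399 without transport replicate 1 and 379 without control replicate 3. With the replicate number as a block it was 14, and the p63, Grainyhead and plakin lists then had 0 calls each, against 4, 1 and 1. Of the 17 called genes and loci named outside the cell type markers, 0 stayed called with this block (edgeR adjusted p from 0.0794 to 0.149). Same-numbered libraries did not deviate together (r = -0.0735, -0.0296 and -0.0441), so the numbers were not taken as pairs, and no library correlated best with its own number. The Grainyhead list had 3 calls with DESeq2 and 2 with upper-quartile scaling, the stricter filter and counts divided by 4. The annexin list had 2 with DESeq2 and 0 with each library left out. Leaving out 1 library gave 0 to 4 calls in the p63 list, and 0 to 1 in the Grainyhead and in the plakin list. Uncalled relatives whose sign turned with a library left out were anxa2 (-0.25 to 0.29), anxa6 (-0.59 to 0.17), LOC113634813 (-0.20 to 0.026), LOC113660766 (-0.037 to 0.17), LOC113650459 (-0.35 to 0.092) and LOC113644801 (-0.15 to 0.079). The causes were not tested. Low counts cluster at 4, so about 4 units seem to stand for 1 fragment, and scarce genes rest on fewer fragments than their counts.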

Other observations

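The annotation places the 4 genes in different company. Of the GO terms in the table, grhl1 and evpl share epidermis development, which 13 rows carry. Of the 10 other tested genes with that term, col17a1 was called lower and none higher, with a median log2 fold change of -0.17. The genes tp63 and grhl1 share DNA binding transcription factor activity. Of 529 other tested genes with it, 7 were called higher and 23 lower by edgeR (median -0.14). Over all tested genes, 3.23% were called higher and 3.46% lower. No set test was run on these terms. The term of anxa1 for phospholipase inhibition also falls on anxa2, on LOC113640908, and on the A3-like loci LOC113640648 and LOC113640658.

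The next gene before tp63 on its scaffold, 24219 bases away and on the same strand, is LOC113643045, named for regulation by p63. It had 38.0 FPKM after transport and 48.1 FPKM in controls and was not called (log2 fold change -0.36, edgeR adjusted p = 0.150). On the other side, tbc1d23 starts 642 bases after tp63 on the opposite strand and had a log2 fold change of 0.03. The neighbours of evpl, srp68 and ten1, were not called either (-0.08 and 0.13). After anxa1, 1469 bases on, mfsd3, a transporter family gene, had 1.41 ± 0.429 FPKM after transport and 2.91 ± 0.486 FPKM in controls and was not called (edgeR adjusted p = 0.0970).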
